A study of Mus musculus with 8 samples.

Results

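*Clca4b* and *Mal* are 2 of the 128 genes listed on day 7 for colonic intestinal epithelial cells (IECs) of mice with and without epithelial *Efhd2*. They were looked up by gene name in the authors' table of that day, and neither name nor identifier is among the 309 genes listed for day 0. Both were selected on their day 7 normalized counts in the comparison of the genotypes, and the table itself holds only genes that passed the authors' thresholds for that difference. The day 7 levels are therefore described here and not tested. The groups were *Efhd2*f/f Vil1cre/+ mice, in which Cre driven by the villin promoter removes the second exon of *Efhd2* from intestinal epithelium, and *Efhd2*f/f mice, which carry the same floxed allele without Cre and are labelled wild type. Each genotype was sampled on day 0 without dextran sodium sulfate (DSS), a polymer given in drinking water that injures the colon lining, and on day 7 of DSS colitis. Each of these 4 groups has 2 libraries. The study used young adult mice of both sexes, and the labels give neither age, sex and DSS dose nor the number of animals behind a library.

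The IEC fraction was shaken from the colon with EDTA and strained, with no sorting step named, so other cells could be present. In such bulk RNA, more cells of a type and more RNA per cell cannot be told apart. *Efhd2* itself is not listed on day 7, where it either missed the authors' thresholds or was not measured. The loss of *Efhd2* is therefore not seen on day 7, and the genotype labels of the libraries used here could not be checked by it. On day 0 it stood at 556 and 713 normalized counts in *Efhd2*f/f Vil1cre/+ IECs (libraries 51 and 53) and 2663 and 2686 in those of controls (libraries 50 and 52). The depth of the libraries is unknown.

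The pair differ in what they encode. *Clca4b* belongs to a family of calcium-activated chloride channel regulators, secreted or membrane-bound proteins with a metalloprotease-like domain that cuts the protein itself, several of which are made by the epithelium of gut and airway. *Mal* encodes a small hydrophobic protein with several membrane-spanning segments. It sits in cholesterol-rich membrane domains, takes part in carrying proteins to the apical surface of polarized epithelial cells, and is also made by T cells and by myelinating glia. The name colonocyte genes rests on such background. Of 8 general epithelial markers none was listed on day 7, and of 20 markers of absorptive colonocytes only *Cyp2c55*. There is thus little against which the cell of origin can be checked. *Cyp2c55* was lower in both *Efhd2*f/f Vil1cre/+ libraries than in both *Efhd2*f/f libraries, the reverse of both members. The 1 such marker listed on day 0, *Aqp8*, was also lower there.

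*Clca4b* (ENSMUSG00000074195) lies on the minus strand at chr3:144910921-144932529 of GRCm38, and its annotated transcript has 14 exons and 2997 bases, of which 2775 are coding. *Mal* (ENSMUSG00000027375) lies on the minus strand at chr2:127633226-127656695, with 4 exons and 2778 bases in the longer of its annotated transcripts, of which 459 are coding. No annotated gene overlaps either of them. The 250 bases before each start site, from RefSeq on GRCm38.p6, are shown because both genes stood higher in the same libraries; they were searched on both strands for 8 short motifs, and capitals mark the matches. The sequence of *Clca4b* is the minus strand of chr3:144932530-144932779 and that of *Mal* the minus strand of chr2:127656696-127656945.
Clca4b: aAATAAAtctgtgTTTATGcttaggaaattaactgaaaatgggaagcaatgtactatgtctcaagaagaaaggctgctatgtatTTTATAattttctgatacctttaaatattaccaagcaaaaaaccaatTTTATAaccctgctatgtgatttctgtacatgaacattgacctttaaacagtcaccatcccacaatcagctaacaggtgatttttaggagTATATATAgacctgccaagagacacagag
Mal: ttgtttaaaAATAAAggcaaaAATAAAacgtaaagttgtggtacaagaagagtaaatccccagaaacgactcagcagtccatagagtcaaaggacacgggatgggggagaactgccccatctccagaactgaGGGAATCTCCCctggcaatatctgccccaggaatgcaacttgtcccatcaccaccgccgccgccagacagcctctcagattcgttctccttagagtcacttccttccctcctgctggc

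The matches differed between the stretches. In *Clca4b* the letters TATATA occurred at overlapping positions from 29 to 22 bases before the start, the usual place of a TATA box. TATATA was found in 5.25% of 32851 promoter stretches of the same length, and not in that of *Mal*. TATAAA had 2 matches in *Clca4b* and none in *Mal*, and was present in 12.4% of all stretches. Both matches lay on the opposite strand and further off, from 166 to 161 and from 119 to 114 bases before the start. TTTATN, the core letters read by the intestinal factor CDX2, had 4 matches in *Clca4b*, of which 2 overlap the TATAAA matches, and 2 in *Mal*, and was present in 37.2% of all stretches. A match to the NF-kB motif was found in *Mal* from 118 to 108 bases before the start, where matches on either strand overlap, and in 3.90% of all stretches. Neither stretch held CAAAGNCCA, part of the site of the hepatocyte nuclear factor HNF4, which 1.70% of all stretches held. The same was true of AGATAA, read by GATA factors and present in 9.99%. It was also true of TGANTCA, the site of AP-1, present in 6.75%, and of the STAT site TTCNNNGAA, present in 7.02%. The stretch of *Clca4b* had a GC content of 33.2% and no CG dinucleotide, against 50% and 7 in *Mal* and medians of 52.4% and 6.0 over all stretches. These matches are descriptions of letters and say nothing of binding.

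On day 7, *Clca4b* was at 15510 and 12917 normalized counts in *Efhd2*f/f Vil1cre/+ libraries 65 and 71 and at 458 and 1055 in controls, libraries 67 and 68. The groups did not overlap, and the lower *Efhd2*f/f Vil1cre/+ library was 12.2 times the higher *Efhd2*f/f library. The means were 14214 ± 1833 and 756 ± 422 (SD, n = 2 libraries each), a ratio of 18.8. On log2(normalized count + 1) the difference was 4.35 with a standard error of 0.79 from limma, the 12th of 128 when listed genes are ordered from the most positive difference down. This and the later standard errors are moderated, that is, drawn in part from the spread of all listed genes. The residual SD of *Clca4b* alone was 0.62.

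*Mal* was at 1739 and 1384 normalized counts in libraries 65 and 71, against 260 and 645 in libraries 67 and 68. Here too the groups did not overlap, but the gap was narrower, with the lower *Efhd2*f/f Vil1cre/+ library at 2.15 times the higher *Efhd2*f/f library. The means were 1562 ± 251 and 452 ± 272 (SD, n = 2 libraries each), a ratio of 3.45, and the log2 difference was 1.92 with a standard error of 0.80, 95th of 128 in the same order. The residual SD of *Mal* alone was 0.67. Nonoverlap in this direction was the case for 90.6% of the listed genes, which had been selected for a difference, so nothing is read from it for these genes. When library totals over the list were made equal, the log2 difference of *Clca4b* was 1.92 and that of *Mal* -0.50. This scaling moves the median of all listed genes from 2.53 to 0.13. As most listed genes were selected as higher, a gene that rises less than the list total turns negative by construction. The value thus places *Mal* within the list and cannot decide its direction. The same holds for the other values under equal totals given below.

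**Figure D1:**
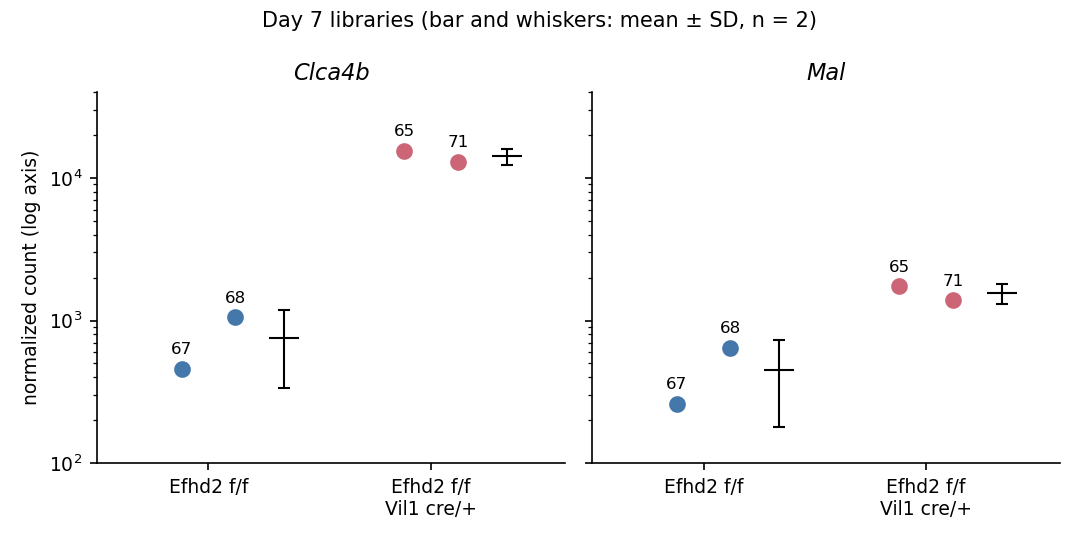
Normalized count on a log axis of *Clca4b* (left) and *Mal* (right) in the 4 libraries of day 7, with library numbers above the points; the bar and whiskers beside each group are the mean ± SD of 2 libraries. For *Clca4b* the *Efhd2*f/f Vil1cre/+ points sit at 12917 and 15510 and the *Efhd2*f/f points at 458 and 1055, while for *Mal* they sit at 1384 and 1739 and at 260 and 645.

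Levels of different genes were compared per kilobase of the gene length in the table. Per kilobase, *Clca4b* was at 4743 ± 612 in *Efhd2*f/f Vil1cre/+ IECs and 252 ± 141 in *Efhd2*f/f IECs, and *Mal* at 562 ± 90.4 and 163 ± 98.0 (SD, n = 2 each). Ordered by the level per kilobase from the highest, *Clca4b* was 8th among the 128 listed genes in *Efhd2*f/f Vil1cre/+ IECs and 25th in *Efhd2*f/f IECs. *Mal* was 44th and 36th. *Clca4b* was thus among the most abundant listed transcripts in one genotype and in the upper part of the list in the other, and *Mal* ranked lower than *Clca4b* in both.

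The ratio of the members to each other cancels any scaling of a library. *Clca4b* was 8.92 and 9.33 times *Mal* in libraries 65 and 71 and 1.76 and 1.64 times *Mal* in libraries 67 and 68. Within a genotype the ratio barely moved, at 9.12 ± 0.29 and 1.70 ± 0.089 (SD, n = 2 each), although both genes were more than 2-fold apart between the *Efhd2*f/f libraries. Per kilobase the ratios were 8.26, 8.65, 1.63 and 1.52. On the log2 scale the ratio of *Mal* to *Clca4b* was -3.19 in *Efhd2*f/f Vil1cre/+ and -0.76 in *Efhd2*f/f IECs, a difference of -2.43 that compares with a spread between libraries of 0.063 (pooled SD). It stayed between -2.48 and -2.37 with each library left out. As the ratio comes from the values that selected the genes, it carries no test, and an exact permutation test (two-sided) of 2 against 2 could not give a p below 0.333.

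**Figure D2:**
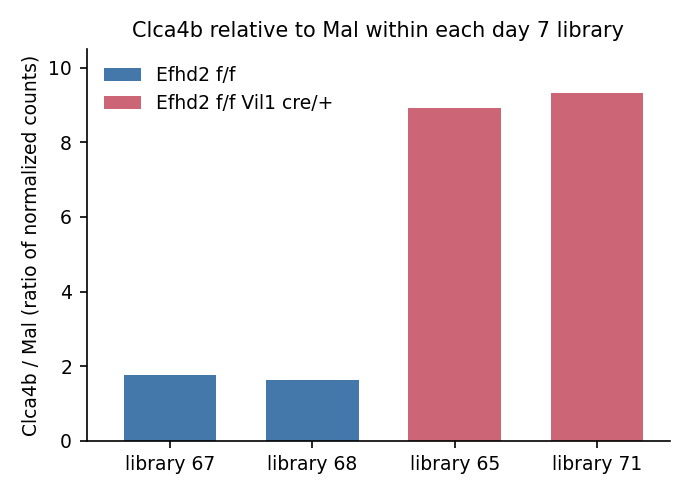
Normalized count of *Clca4b* divided by that of *Mal* in each day 7 library, with bars from 0. The *Efhd2*f/f bars are at 1.76 and 1.64 and the *Efhd2*f/f Vil1cre/+ bars at 8.92 and 9.33.

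Differences between libraries of the same genotype are given as a description, since the authors' adjusted p-values, on which listed genes were selected, depend on this spread and genes with a wide spread were less likely to be listed. Between the *Efhd2*f/f Vil1cre/+ libraries, *Clca4b* was higher in library 65 than in library 71 by 0.26 and *Mal* by 0.33 on the log2 scale. Of the 128 listed genes 44 (34.4%) were higher in library 65, and the median difference was -0.32. Between the *Efhd2*f/f libraries, *Clca4b* was higher in library 68 than in library 67 by 1.20 and *Mal* by 1.31, as were 99 (77.3%) of the listed genes, with a median of 0.88. Within each genotype both members were higher in the same library. They shared the direction of both differences with 37 (28.9%) of the listed genes, themselves included.

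Markers of other cells were read beside them. Of 19 neutrophil markers, 13 were listed on day 7; limma, with p adjusted by Benjamini-Hochberg within the list, called 12 of them higher in *Efhd2*f/f Vil1cre/+ IECs at an adjusted p under 0.05 and a log2 difference above 1, while it called 77.3% of all listed genes higher and 7.81% lower. The other, *Trem1*, had a log2 difference of 1.70. Since all listed genes had been selected for this difference, the count is a description. With library totals made equal, 11 of the 13 differences were positive and 2 negative, and none was called; with any 1 library left out, limma called none of the 128 listed genes. The median log2 difference of the 13 was 2.63, beside 2.53 over all listed genes. Their summed level was 23194 and 69535 in libraries 65 and 71 and 4643 and 7939 in libraries 67 and 68. All 13 were higher in library 71 than in library 65, by 0.50 to 6.40 on the log2 scale, the reverse of *Clca4b* and *Mal*. Of all 128 listed genes, 44 (34.4%) were higher in library 65. Between the *Efhd2*f/f libraries, 12 of the 13 were higher in library 68 than in library 67. That is the direction of both members and of 77.3% of the listed genes. Examples with high levels are the calprotectin subunit genes *S100a9*, at 10154 in library 65 and 21631 in library 71, and *S100a8*, at 4516 and 15015, and the siderophore-binding gene *Lcn2*, at 2356 and 7498.

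Of 5 red blood cell markers, 4 were listed on day 7, the globin genes *Hba-a1*, *Hba-a2* and *Hbb-bs* and the heme synthesis gene *Alas2*. All 4 were called higher by limma, beside 77.3% of all listed genes, with a median log2 difference of 2.28. With library totals made equal, which lowers the median of the list, 3 of the 4 differences were negative. The summed level of the 4 genes was 4139 and 3992 in libraries 65 and 71 and 562 and 1344 in libraries 67 and 68. It was thus similar in the *Efhd2*f/f Vil1cre/+ libraries. All 4 were higher in library 68 than in library 67, as were *Mal* and 77.3% of the listed genes. Unlike *Mal*, *Alas2* was lower in library 65 than in library 71 (log2 difference -0.24). Of 12 macrophage and monocyte markers only *Cd14*, the endotoxin coreceptor, was listed, at 11964, 13046, 2458 and 4394 in libraries 65, 71, 67 and 68. Myeloid genes outside these 12 were also listed, such as *Marco* (log2 difference 4.93) and *Clec4e* (1.86). Of 10 stromal and endothelial markers *Fn1* and *Spp1* were listed, and their summed level was 1942, 2095, 209 and 543 in the same order. The sum hides opposite courses between libraries 65 and 71, where *Fn1*, the gene of fibronectin, was at 1187 and 1997 and *Spp1*, the gene of osteopontin, at 755 and 97.6. With library totals made equal, the difference between genotypes was positive for *Spp1* and negative for *Fn1*. None of the 16 T and NK cell markers, the 9 B and plasma cell markers or the 16 markers of squamous epithelium was listed on day 7, which leaves their levels unknown rather than at 0. The part that other cells had in the levels of *Clca4b* and *Mal* was not tested.

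**Figure D3:**
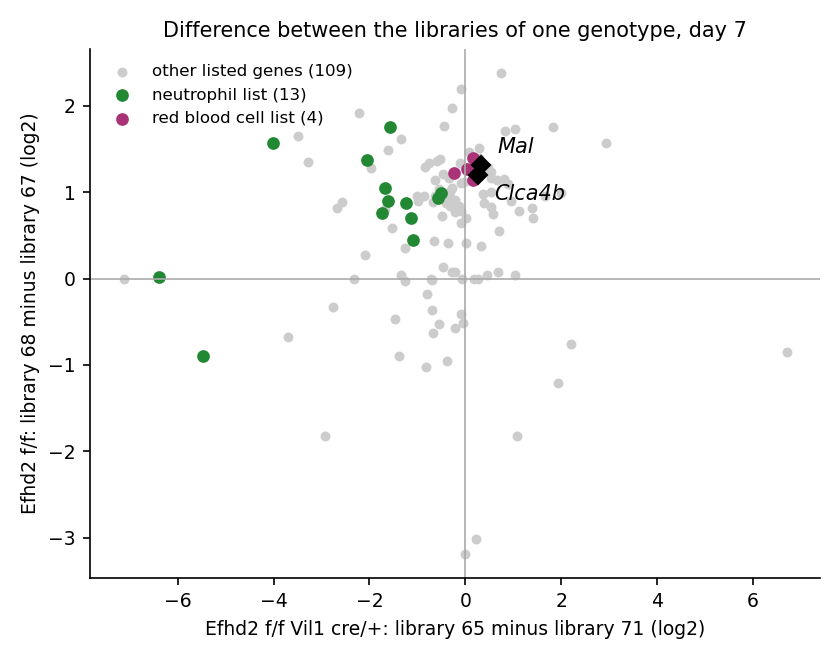
Each point is 1 of the 128 listed genes of day 7; the horizontal axis is the log2 difference of library 65 minus library 71 (*Efhd2*f/f Vil1cre/+) and the vertical axis that of library 68 minus library 67 (*Efhd2*f/f), both on log2(normalized count + 1). *Clca4b* (0.26, 1.20) and *Mal* (0.33, 1.31) lie close together beside the 4 red blood cell genes, of which 3 lie right of 0. Genes of neither marked list also lie near them, such as *Stom* (0.28, 1.39) and *Cxcl2* (0.47, 1.28). The 13 neutrophil genes all lie left of 0, and 12 of them lie above 0 on the vertical axis.

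The listed genes most like each member were found by the Euclidean distance, over the 4 libraries of day 7, between log2(normalized count + 1) values from which the mean of each gene had been taken. The distance describes the pattern over libraries that share their depth and scaling, and no function is read from it. For *Mal* the nearest were *Stom* (distance 0.11), the gene of stomatin, another protein of cholesterol-rich membrane domains that is abundant in red blood cells; *Cxcl2* (0.13), a neutrophil chemoattractant; *Clec4e* (0.29), a pattern receptor of myeloid cells; and the globin genes *Hbb-bs* (0.30) and *Hba-a1* (0.31). *Stom* was at 4014, 3313, 628 and 1652 normalized counts in libraries 65, 71, 67 and 68, which is about the course of *Mal* at a higher level. *Cxcl2* was at 14086, 10183, 1917 and 4665 in the same order.

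*Clca4b* had no neighbour so close. Its nearest were *Gml* (distance 0.62), *Csf3* (0.90), the gene of the granulocyte growth factor G-CSF, *Ighv1-34* (0.92), an immunoglobulin variable segment, *Cyp11b1* (0.95), a steroid hydroxylase, and *Marco* (1.03), a scavenger receptor of macrophages. All of these were at far lower levels: *Gml* was at 128, 136, 5.97 and 9.93 in libraries 65, 71, 67 and 68, and *Csf3* at 319, 260, 14.5 and 43.0. *Ighv1-34*, *Cyp11b1* and *Marco* had values under 1e-06, taken as 0, in both *Efhd2*f/f libraries. The distances of these last genes depend on the pseudocount of 1, and no other was tried for the distance. The members were not near each other by this measure, at a distance of 2.43. *Mal* was the 77th nearest of 127 genes to *Clca4b*, and *Clca4b* the 94th nearest to *Mal*, because the distance counts the size of the difference between genotypes as well as its course.

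**Figure D4:**
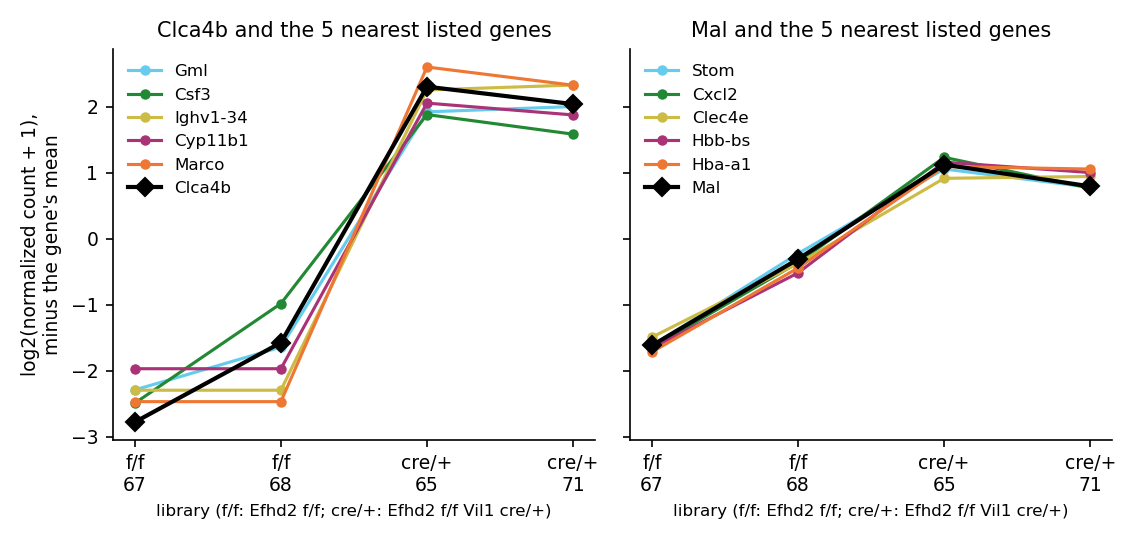
log2(normalized count + 1) minus the mean of the gene over the 4 libraries of day 7, for *Clca4b* (left, black) and *Mal* (right, black) with the 5 listed genes nearest to each; lines join the values of a gene and carry no order. The *Mal* curves nearly coincide (distances 0.11 to 0.31), and those of *Clca4b* spread more widely (0.62 to 1.03), chiefly in *Efhd2*f/f libraries.

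*Clca4b* is part of a family of 8 genes, 1 of them a pseudogene, that lie together on the minus strand of chr3:144729677-145099443, a span of 370 kb. The other 7 were listed on neither day, including *Clca1*, a secreted product of goblet cells. The transcript of *Clca4b* is 95.6% identical to that of *Clca4a* and 94.5% to that of the pseudogene *Clca4c-ps* over the aligned bases, and 56.5% to 62.9% identical to those of the remaining 5 genes. Of the 50-base windows of the *Clca4b* transcript, 24.8% occur without mismatch in a transcript of another gene, in *Clca4a* for 21.0% and in *Clca4c-ps* for 11.3%. For windows of 100 bases the share is 6.49%. The count of *Clca4b* is uncertain for this reason, and these shares do not measure by how much. Reads from these windows could have been split among the copies or dropped by the authors' counting, whose settings are not given in the sources used here. Reads of the copies could likewise have been counted as *Clca4b*, which was not tested. None of the windows of 50 bases of the *Mal* transcript occurs in a transcript of another gene.

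**Figure D5:**
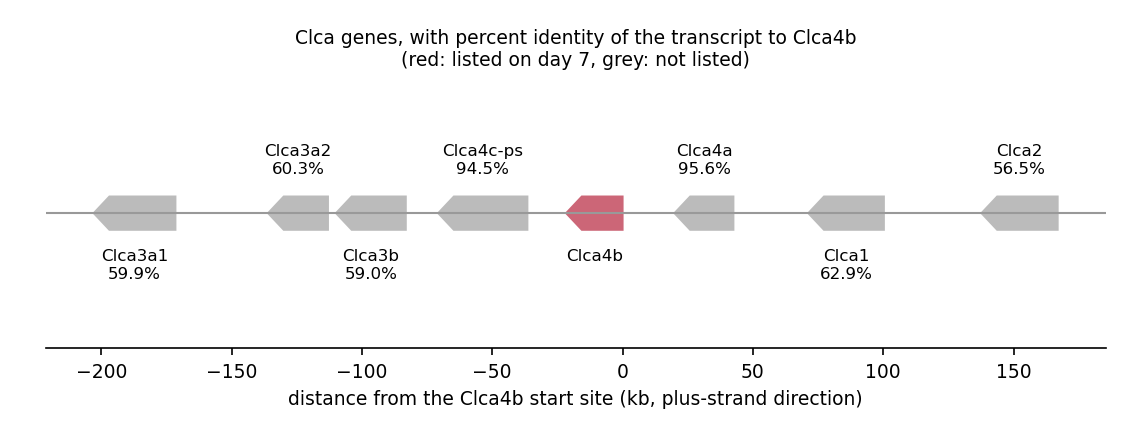
The *Clca* genes along chromosome 3, with the distance from the *Clca4b* start site in kilobases on the horizontal axis and arrows pointing in the direction of transcription; the number under each name is the percent identity of its longest transcript to that of *Clca4b*. *Clca4b*, in red, was listed on day 7, and the other 7 genes, in grey, were not.

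Within 1 Mb of *Clca4b* the annotation holds 16 other protein-coding genes, and within 1 Mb of *Mal* 31. No gene in either window was listed on day 7 or on day 0. Of 22 genes of the MAL and MARVEL family, which share a membrane domain and include the tight junction gene *Ocln* and the liver and epithelial relative *Mal2*, *Mal* alone was listed on day 7. Of 19 genes of apical sorting and membrane rafts, *Flot2*, the gene of a raft scaffold protein, was listed. It was at 428, 1178, 216 and 156 normalized counts in libraries 65, 71, 67 and 68, a log2 difference of 1.94 with a standard error of 0.82, and of -0.47 with library totals made equal. Unlike *Mal*, *Flot2* was higher in library 71 than in library 65 and lower in library 68 than in library 67.

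None of 24 genes of epithelial ion transport, among them the chloride channel gene *Cftr*, the chloride and bicarbonate exchanger gene *Slc26a3* and carbonic anhydrase genes, was listed on day 7 beside *Clca4b*. From the list of 20 absorptive colonocyte markers, the cytochrome gene *Cyp2c55* was listed, with 4362 and 5891 normalized counts in libraries 65 and 71 and 12143 and 41314 in libraries 67 and 68, a log2 difference of -2.14 with a standard error of 0.84. Both *Efhd2*f/f Vil1cre/+ libraries were below both *Efhd2*f/f libraries, and the difference was -4.57 under equal library totals. *Flot2* and *Cyp2c55* were listed for this same difference between genotypes, so their values are given without a test. None of 9 goblet cell markers, 7 markers of stem and crypt base cells or 10 markers of repairing epithelium was listed. A gene that is not listed either missed the authors' thresholds or was not measured, so these counts do not show that the remaining markers were alike between the genotypes.

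On day 0, without DSS, no gene of the *Clca* family and none of the MAL and MARVEL family was listed, and neither was any of the genes for apical sorting. Of the ion transport list, the water channel genes *Aqp4* and *Aqp8* were listed. *Aqp4* was at 8572 and 8925 normalized counts in *Efhd2*f/f Vil1cre/+ libraries 51 and 53, against 3684 and 4935 in libraries 50 and 52 of controls, and *Aqp8*, also a colonocyte marker, at 2213 and 3293 against 5138 and 6943. *Aqp4* was higher, and *Aqp8* lower, in both *Efhd2*f/f Vil1cre/+ libraries. Of the 16 T and NK cell markers, 6 were listed on day 0, all lower in both *Efhd2*f/f Vil1cre/+ libraries. The stromal and endothelial markers *Dcn*, *Pecam1* and *Spp1* were lower there too, and *Alas2* was higher. Genes of day 0 were also listed for a difference between genotypes, so these values are given without a test. Absence from the day 0 list leaves the day 0 levels of *Clca4b* and *Mal* unknown, so a change from day 0 to day 7 was not analysed here, and whether the genotypes differ more on day 7 than on day 0 was not tested.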

How the data were processed

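RNA of colonic IECs was sequenced on an Illumina platform in 8 libraries, 2 for each genotype and day. Per the labels, the submitters' processing notes name CASAVA 1.8, fastp, HISAT2 2.0.5, featureCounts 1.5.0-p3 and DESeq2 1.20.0, and the builds GRCm38 and mm10. For each day the authors deposited 1 table of the genes past their thresholds, whose signal per library is a normalized count scaled by a method not given in the sources used here. Low values lie near whole multiples of a step but not on them, so whole reads were not recovered and no count model was fitted. Columns with the authors' fold changes, p-values and adjusted p-values were not used, and their mean per genotype equals that of the libraries.

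On day 7, 14 values under 1e-06 were taken as 0. log2(value + 1) was fitted over the 128 listed genes with limma 3.58.1 in R 4.3.3, with Benjamini-Hochberg adjustment over them and the calls described above. As listed genes were selected for this difference, calls serve as background only; *Clca4b* and *Mal* were given no test. In simulated data at the levels of day 7 (2000 genes, 200 changed 4-fold) 193 changed genes were recovered, with 5 false calls. The simulation left most genes unchanged and put no general difference between libraries of a genotype. In the day 7 list most genes were selected as changed and the *Efhd2*f/f libraries differ. It therefore checks that the fit runs and gives no error rate for the calls made here. Since the labels do not say that libraries came from separate animals, p-values measure the spread between libraries, which may be technical. Columns carry library numbers, not the replicate numbers of the labels. The members and gene lists were chosen with earlier results of these data known. The motifs were chosen after the promoter sequences of both members had been seen. The genes named are the members, the 5 nearest to each in pattern, at most 5 listed genes of each list by level, and listed genes within 1 Mb. Gene models, transcripts and their shared windows came from GENCODE release M21 (GRCm38), whose coordinates of both members equal those of the files. Python 3.11.15 with pandas 2.3.3, numpy 2.4.6 and matplotlib 3.10.9 was used. Alternatives were pseudocounts of 0.1 and 10, library totals over the list made equal, genes limited to means of 50 or more, no variance moderation, group means without a pseudocount, and each library left out.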

Additional observations from a re-analysis of the deposited data

How the results depend on the processing

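The log2 differences of *Clca4b* and *Mal* kept their direction with pseudocounts of 0.1 and 10, with the ratio of group means and with each library left out, where *Clca4b* ranged from 3.74 to 4.95 and *Mal* from 1.27 to 2.57; the lowest values came without *Efhd2*f/f library 67 and the highest without library 68. With equal sums over the listed genes *Clca4b* was at 1.92 and *Mal* reversed to -0.50. This scaling assumes that the listed genes sum to the same total, while most of them were selected as higher. A gene that rises less than the list total therefore turns negative by construction. The ratio of *Mal* to *Clca4b* ranged from -2.48 to -2.37 without a library. The number of listed genes called, 109, was 71 with a mean of at least 50 (fewer genes tested), 12 with equal sums, 3 without variance moderation (at an unadjusted p under 0.05, 39 higher and 3 lower) and 0 to 0 without any 1 library (limma; at an unadjusted p under 0.05, 57 higher and 4 lower without library 65, 38 and 1 without 71, 35 and 7 without 67, and 81 and 4 without 68), where the lone library is assumed to vary like the other group. No paired analysis was possible because the columns carry no replicate numbers of the labels. With an unknown depth, counting error cannot be given.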

Other observations

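*Gml*, the listed gene nearest to *Clca4b* in pattern, and *Cyp11b1*, the fourth nearest, are neighbours on chromosome 15 of GRCm38, with a gap of 15.3 kb between chr15:74813452-74818815 and chr15:74834125-74841643. *Cyp11b1* was at 15.3 and 13.4 normalized counts in *Efhd2*f/f Vil1cre/+ libraries 65 and 71 and is listed at 0 in libraries 67 and 68 of *Efhd2*f/f IECs.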
